A study of Drosophila melanogaster with 2 samples.

Results

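The 4 genes described here encode the enzymes of 3 consecutive steps of lower glycolysis in the fly: Pgk, Pglym78, Pglym87 and Eno, of 13945 protein-coding genes in all. They were chosen by name, with earlier results of these data known, so shares over all genes are given as background only. A region was counted at a gene when its summit, the position of highest signal, lay inside the gene or within 2 kb of any of its annotated transcript starts. The binding data come from Drosophila melanogaster embryos of both sexes, taken whole between 0 and 24 h of development. The flies were a transgenic line, ERR-eGFP, in which the C-terminus of the oestrogen-related receptor ERR carries enhanced green fluorescent protein, and chromatin was precipitated with an antibody to the tag and sequenced (ChIP-seq). The 2 biological replicates, numbered 2 and 3, both carry the fusion and form 1 group, so no condition could be compared. Ages and cell types are mixed in a whole-embryo sample, and untagged or input chromatin was not analysed here, so the values describe binding averaged over the embryo and say nothing of transcription.

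ERR is an orphan nuclear receptor, known in the fly embryo as an activator of glycolytic genes that sets up the carbohydrate metabolism of the growing larva. Phosphoglycerate kinase, the product of Pgk, hands a phosphate from its substrate to ADP and so makes ATP. Phosphoglycerate mutase, encoded by the paralogues Pglym78 and Pglym87, moves the remaining phosphate to the neighbouring carbon, and enolase, encoded by Eno, removes water to give phosphoenolpyruvate, the substrate of pyruvate kinase. Nuclear receptors of this family bind an element with the core AAGGTCA, extended on its 5′ side to TNAAGGTCA, in which N is any base.

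The sites that most resemble that element near the strongest regions of Pgk, Pglym78 and Eno are shown first, because the later results refer back to them. Each is given 5′ to 3′ on the strand that reads as AAGGTCA, with the 9 aligned bases in capitals and 10 bases on either side. Only the first Eno site matches TNAAGGTCA in full. The Pgk site and the second Eno site hold the whole core with 1 mismatch outside it, and the Pglym78 site has 1 mismatch inside the core. All 4 lie in 5′ UTR sequence.
Pgk, chr2L:2748489-2748517, plus strand: caatgtcagcGCAAGGTCAttttgtcggt
Pglym78, chr3R:29148337-29148365, plus strand: acggctccctTGTAGGTCAaacttcagca
Eno, chr2L:1727296-1727324, plus strand: aagctactttTAAAGGTCAgacccaaagt
Eno, chr2L:1728162-1728190, minus strand: taaccttgtgCGAAGGTCAattttcccca

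The short intervals before the starts of Pglym78 and Pglym87 are shown because Pglym78 has the strongest region of the data and Pglym87 none. That region spans the first interval, but its summit lies outside it, 53 bp downstream of the Pglym78-RA start. The first is the 75 bases between the start of the divergent gene CG11882 and the most upstream start of Pglym78. The second is the 64 bases between the neighbouring gene Cyp313a5 and the start of Pglym87. Both read 5′ to 3′ towards the phosphoglycerate mutase gene, and neither holds the core, so no base is in capitals.
Pglym78, chr3R:29148173-29148247, plus strand: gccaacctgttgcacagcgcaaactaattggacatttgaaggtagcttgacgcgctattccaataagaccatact
Pglym87, chr3R:12232730-12232793, minus strand: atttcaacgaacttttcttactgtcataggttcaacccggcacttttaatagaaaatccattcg

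Regions were read from 4 lists on the dm6 build. The relaxed lists of replicate 2, replicate 3 and the pooled replicates held 30000 regions each, and the optimal set, chosen by reproducibility of rank between replicates, held 2892. Signals are in the peak caller's own units and are not scaled between lists. Their median was 26.7 in the pooled list, 16.3 in replicate 2 and 14.2 in replicate 3, with lowest values of 16.8, 10.2 and 9.26. The optimal set was identical to the 2892 highest pooled regions, so its cutoff was a pooled signal of 69.2 and its median was 97.8. All optimal regions share 1 −log10 q-value of 3.89, so regions were ranked by signal. Sequencing depth is unknown.

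Optimal regions were found at 3 of the 4 genes: 6 at Pgk, 1 at Pglym78, 3 at Eno and none at Pglym87. Under the same rule 22.5% of protein-coding genes had an optimal region. The same 3 genes had regions in the pooled list (11 at Pgk, 3 at Pglym78, 8 at Eno), where 72.5% of genes had one. In replicate 2 the numbers were 14, 3 and 6, against 73.7% of genes with a region, and in replicate 3 they were 14, 3 and 9, against 74.4%. Because most genes had a relaxed region, presence in those lists separates few genes, and the levels carry the description that follows. Pglym87 was in the minority, since 80.3% of genes had a region in at least 1 of the 3 relaxed lists.

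**Figure D1:**
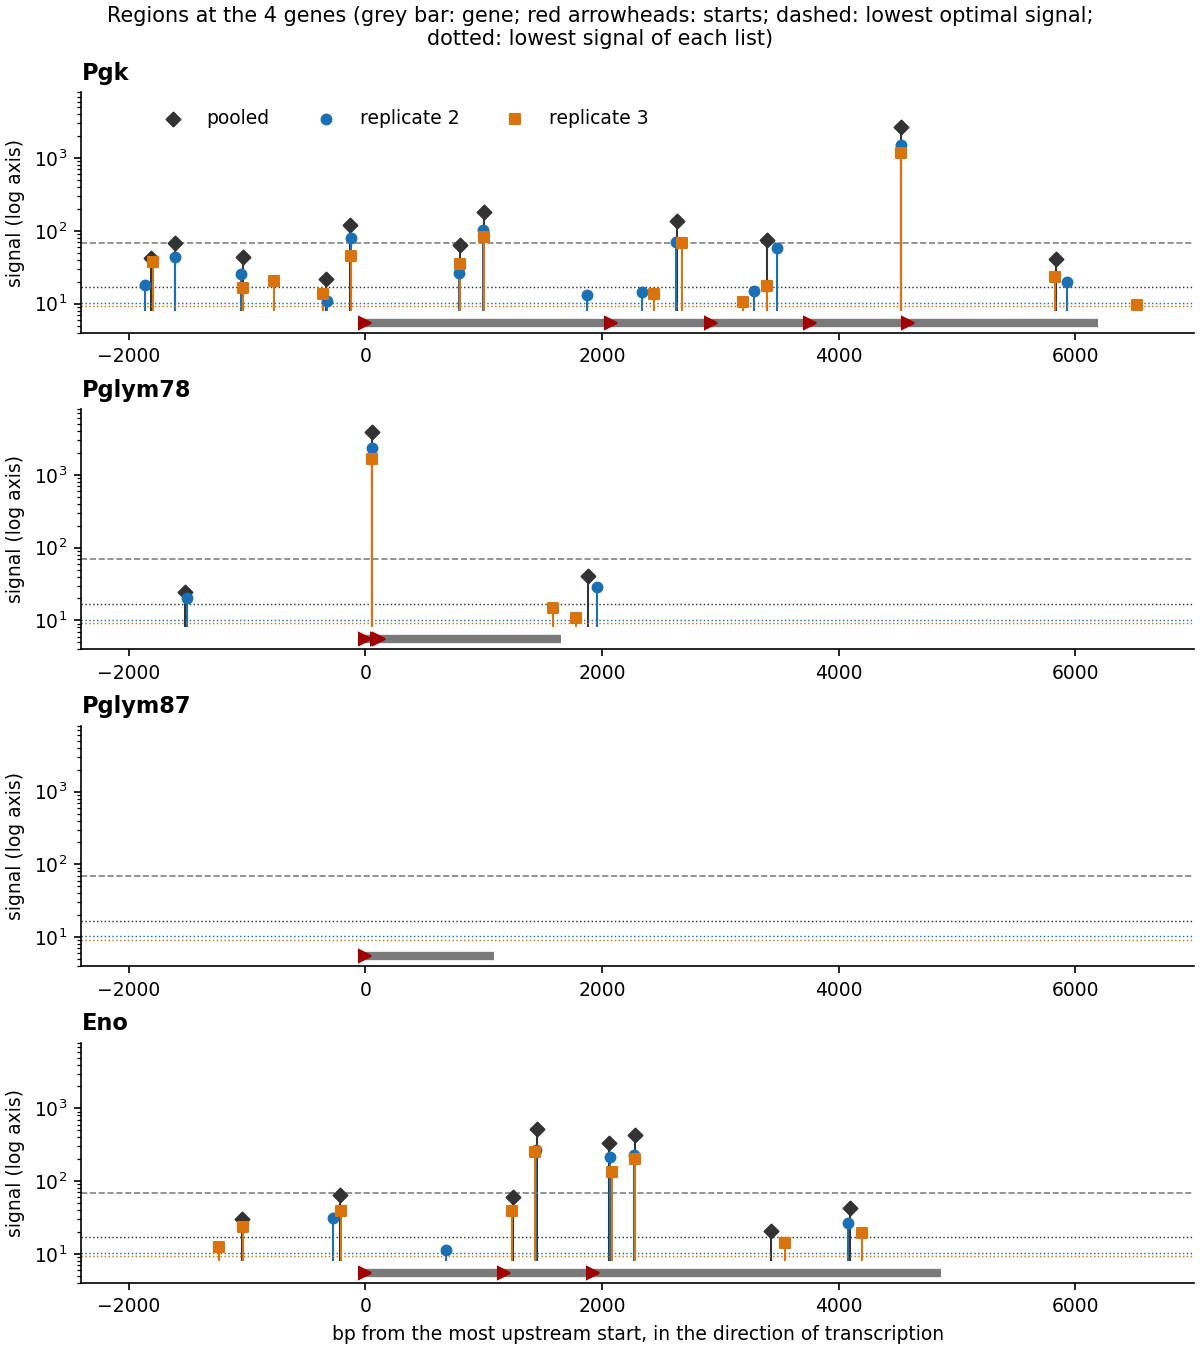
Signal of every region at the 4 genes (log axis, caller units) against distance in bp from each gene's most upstream start, for the pooled list and both replicates. Pgk and Pglym78 each have 1 dominant region, with pooled signals of 2675 and 3946, Eno has 3 of similar height, and Pglym87 has none.

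Pgk (FBgn0250906, 2L, 2746880 to 2753068, minus strand) has 5 transcripts, each with its own start. Its strongest region (2748218 to 2748874) had a signal of 1501 in replicate 2, 1182 in replicate 3 and 2675 in the pooled list, and ranked 2 in all 3. The summit lay 57 bp upstream of the start of transcript Pgk-RA, the most downstream of the gene's starts, at a position that is 5′ UTR in longer transcripts. The region was 657 bp wide, wider than 99.4% of optimal regions. It stood far above the rest of the locus: the second region was lower by 14.6-fold in replicate 2 and 14.3-fold in replicate 3, and the strongest held 77.1% of the summed pooled signal of all 11.

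The other 5 optimal regions of Pgk were of ordinary height, spread along the upstream part of the gene and its flank. The second, with an intronic summit at 2752068, had signals of 103 in replicate 2, 82.5 in replicate 3 and 182 pooled (rank 390). An intronic summit at 2750435 had 69.5, 68.1 and 137 (rank 717) and lay 288 bp upstream of the Pgk-RB start. A summit at 2753201 had 79.2, 45.6 and 120 (rank 959) and lay 133 bp upstream of the most distal start, Pgk-RD. These 3 regions were above the optimal median in pooled signal, and each was found in both replicates. The remaining 2 sat close to the cutoff and differed between replicates in signal or in summit position. The intronic summit at 2749676, 363 bp upstream of the Pgk-RE start, had a pooled signal of 74.0 (rank 2519), with 58.8 in replicate 2 (rank 1407) and 17.7 in replicate 3 (rank 9844). The summit at 2754679, 1611 bp upstream of Pgk-RD, had a pooled signal of 69.2 (rank 2889) and 44.3 in replicate 2 (rank 2502). No replicate 3 summit lay within 100 bp of it. An overlapping replicate 3 region had its summit at 2754861, with a signal of 37.7 (rank 2088).

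Of the 5 Pgk starts, 4 had an optimal summit within 500 bp, and the nearest one lay upstream of the start each time. The exception was the Pgk-RC start, whose nearest optimal summit lay 554 bp away. Over all starts of protein-coding genes, 13.8% had an optimal summit within that distance. The 4 genes together have 12 starts, of which 9 had one, but these starts are not independent. The 3 Pglym78 starts share a single summit, and the highest Eno summit lies within 500 bp of both Eno starts counted. A gene with 6 or more optimal regions was rare, at 0.151% of protein-coding genes (21 genes), but those genes are long, with a median length of 48405 bp against 2166 bp for all genes. Pgk spans 6189 bp, and among the 1049 genes within 20% of that length it was the only one with 6. Part of this count is shared with a neighbour. The 3 upstream optimal summits, at 2752068, 2753201 and 2754679, lay 377, 32 and 1446 bp from a start of Bacc, a gene on the opposite strand, and nearer to it than to any Pgk start. Which gene they serve was not tested.

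The summit at 2753201, which lies upstream of the distal Pgk start and inside an intron of Bacc, was the only 1 of the 10 optimal summits at these genes with GAGAGAG, the element of the GAGA factor (GAF), within 100 bp. The stretch from 100 bp below that summit to the nearest Bacc start is shown because 4 of the matches lie in it, the nearest centred 14 bp from the summit. Capitals mark GAGAGAG on either strand, where overlapping matches merge into 1 run.
Pgk upstream region, chr2L:2753101-2753232, minus strand: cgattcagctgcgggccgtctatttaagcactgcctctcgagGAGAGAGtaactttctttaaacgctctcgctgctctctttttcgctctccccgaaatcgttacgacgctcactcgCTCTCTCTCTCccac
The same element was held by 7.30% of optimal and 5.11% of pooled windows of that width.

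Pglym78 (FBgn0014869, 3R, 29148248 to 29149901, plus strand) carried the strongest region of every list. The region (29147908 to 29148620) had a signal of 2317 in replicate 2, 1645 in replicate 3 and 3946 in the pooled list. Its summit was placed at 29148301 in replicate 2 and the pooled list and 1 bp away in replicate 3. The gene's 3 starts lie close together, and the summit fell among them, 53 bp downstream of the Pglym78-RA start and 41 and 61 bp upstream of the Pglym78-RC and Pglym78-RB starts. At 713 bp it was wider than 99.6% of optimal regions, and it measured 677 bp in replicate 2 and 674 bp in replicate 3. The signal at Pglym78 was almost entirely this region, which held 98.4% of the summed pooled signal. The next region was lower by 81.2-fold in replicate 2 and 112-fold in replicate 3. The summit also lay 129 bp from a start of CG11882, transcribed in the opposite direction, and 1408 bp from one of CG14511, so the lists alone do not assign the region to 1 of these genes.

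Pglym87 (FBgn0011270, 3R, 12231645 to 12232729, minus strand) had no region in any of the 4 lists. The pooled summit nearest to the gene lay 8003 bp beyond its 3′ end with a signal of 18.6 (rank 26246 of 30000). In replicate 3 the nearest lay at the same position with 12.7, and in replicate 2 it lay 8817 bp away with 21.2. On the upstream side the gap was 11917 bp in the pooled list and replicate 2, and 11955 bp in replicate 3. The nearest optimal summit was 10019 bp away. Pglym87 therefore sat in a stretch without listed regions that reached past the 2 kb limit on both sides. Each list ends at its lowest signal, and how common such stretches are was not measured.

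Since no region was listed at Pglym87 in either replicate, the difference between the paralogues could not be tested. The lowest signal of each list was used as a reference in its place. Pglym78 was higher than this by 227-fold in replicate 2 (7.82 on the log2 scale), 178-fold in replicate 3 (7.47) and 235-fold in the pooled list (7.87). Since Pglym78 has the highest signal of each list, these values are the full range of the lists and do not measure Pglym87. The genes also differ in structure: each Pglym78 transcript has 3 exons, and Pglym87 is a single exon. Their coding sequences, of 765 and 876 bp, were identical at 593 of 763 aligned bases (77.7%). The longest stretch they share exactly is 33 bp. Between the Pglym78 region and Pglym87 with 2 kb on either side, the longest exact match was 11 bp. Repeat-masked sequence made up 6.38% of Pglym78 with its flanks and 6.16% of Pglym87 with its own. Whether reads that map to several places were kept is not stated in the sources used here.

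Eno (FBgn0000579, 2L, 1724768 to 1729636, minus strand) has 6 transcripts from 3 starts and showed a different pattern, with 3 optimal summits of similar height in place of 1 dominant peak. The highest, at 1728188, had signals of 271 in replicate 2, 248 in replicate 3 and 516 pooled (rank 47). The next, at 1727362, had 230, 202 and 428 (rank 68). The last, at 1727574, had 213, 133 and 331 (rank 110). Their order was the same in both replicates and the pooled list. The highest exceeded the next by 1.18-fold in replicate 2 and 1.22-fold in replicate 3, and held 34.6% of the summed pooled signal at the gene.

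All 3 Eno summits lay in 5′ UTR sequence downstream of their nearest start. The Pgk summits within 500 bp of a start lay upstream of their nearest one. This contrast holds for the nearest start only, as both genes have several. The strongest Pgk summit also lay in 5′ UTR sequence, downstream of the starts of longer transcripts. The highest Eno summit was 275 bp downstream of the shared start of Eno-RC and Eno-RD, and upstream of the Eno-RA and Eno-RF start. The other two were 143 and 355 bp downstream of the start of Eno-RA and Eno-RF, inside a single 668 bp region of the pooled list (1727171 to 1727838). Each replicate listed these as separate regions, of 318 and 358 bp in replicate 2 and 292 and 318 bp in replicate 3. At the distal start, used by Eno-RB and Eno-RE, no optimal summit lay within 500 bp. A pooled summit 212 bp upstream of it had a signal of 63.8 (rank 3378), with 30.8 in replicate 2 and 39.4 in replicate 3, just under the optimal cutoff. Among protein-coding genes, 1.61% had at least 3 optimal regions, as Eno did when each summit inside the single 668 bp region was counted. Eno spans 4869 bp, against a median of 2166 bp for all protein-coding genes. The highest Eno summit also lay 544 bp from a start of Rrp40, which encodes a subunit of the RNA exosome, and 1699 bp from one of CG31937, both on the opposite strand.

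Several summits lay just outside the thresholds. The 3 highest pooled summits at these genes below the optimal cutoff of 69.2 were the Eno summit just described, a Pgk summit at 2752273 with 63.0 (rank 3457) and an Eno summit at 1728391 with 59.9 (rank 3769). The last lay 72 bp downstream of the Eno-RC and Eno-RD start, and replicate 3 listed it with 38.5 (rank 1991). Beyond the 2 kb limit, the first optimal summits were 2687 bp from a Pgk start, with a signal of 134, 3264 bp from an Eno start, with 111, and 5106 bp from a Pglym78 start, with 125.

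The replicates were compared at the 10 optimal regions. In both replicates, 9 had a summit within 100 bp. Over all optimal regions 94.5% did (2732 of 2892). The ratio of replicate 2 to replicate 3 signal at the 9 had a median of 1.27 and ran from 1.02 to 3.32, and 4 of the 9 exceeded the median of all matched regions, 1.33. The strongest region of each gene lay between the quartiles of all regions, 1.08 and 1.65. The ratio was 1.41 at Pglym78, 1.27 at Pgk and 1.09, near the lower quartile, at the highest Eno summit. Farthest from the median was the intronic Pgk summit at 2749676, whose ratio of 3.32 was above the 95% point of all regions, 2.52. Its replicate 2 summit was placed 88 bp from the pooled one.

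**Figure D2:**
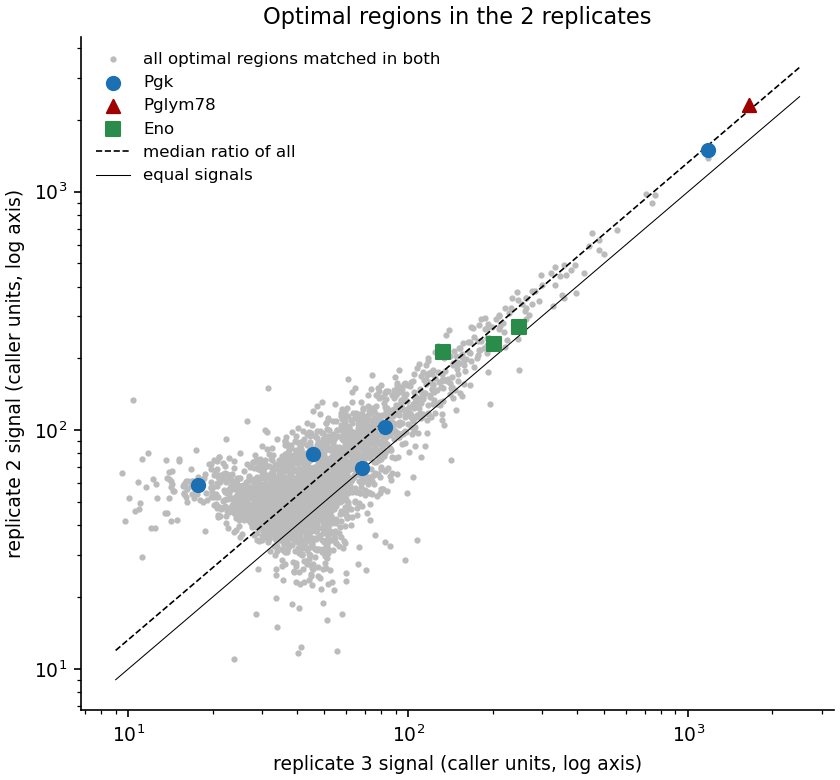
Signal of each optimal region in replicate 2 against replicate 3 (caller units, log axes), for 2732 regions matched in both (grey) and for those of Pgk, Pglym78 and Eno. The dashed line is the median ratio of 1.33, and the Pgk summit farthest to the left has a ratio of 3.32.

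Matches to the ERR element, with at most 1 mismatch, lay within 100 bp of the 4 strongest of the 10 optimal summits and of none of the other 6. Within 100 bp of the summit, on either strand, 1 of the 10 optimal summits held TNAAGGTCA, 3 held the core AAGGTCA and 4 held the longer element when 1 mismatch was allowed. In all optimal windows the shares were 1.63%, 3.80% and 15.1%, and in all pooled windows 1.02%, 2.90% and 13.5%. Every exact match is also a core match, so these counts overlap. The 3 cores were centred 40 bp from the strongest Pgk summit, 13 bp from the highest Eno summit and 51 bp from the Eno summit at 1727362. At Pglym78 the window held no core. Its site with 1 mismatch was centred 50 bp from the summit, and the nearest core lay 259 bp away, still inside the region. At the other 5 Pgk summits the nearest core was between 1172 and 4697 bp away. Among the 20 highest pooled regions, 5 held the core, 1 the full element and 10 the element with at most 1 mismatch, so a strong region without the core was common. Matches are letters in a window and were not tested as binding sites.

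**Figure D3:**
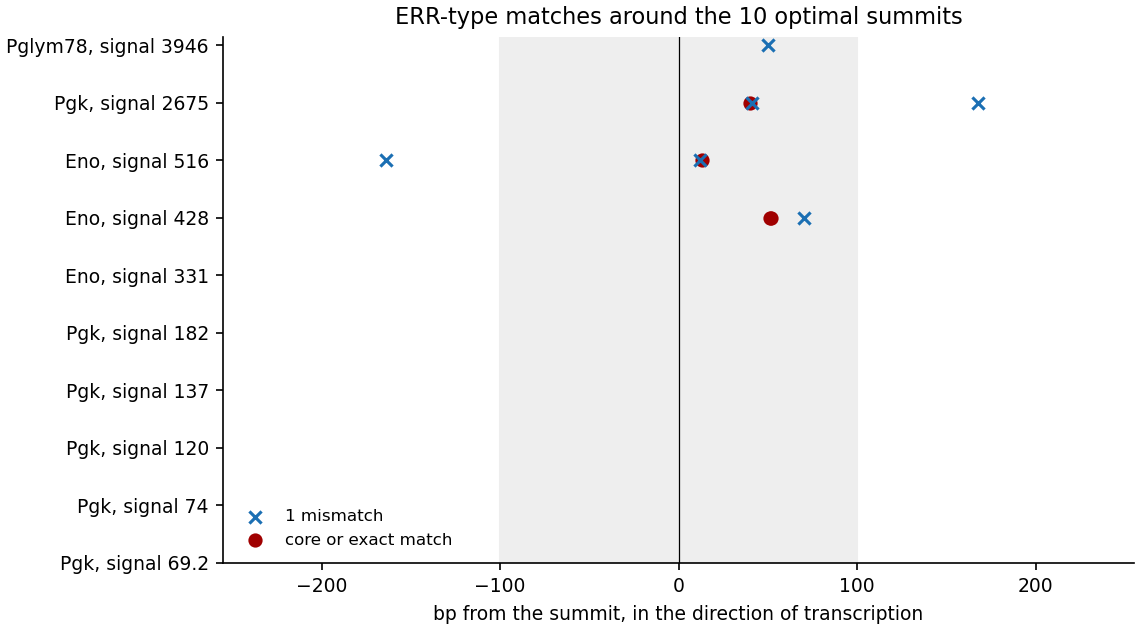
Positions of matches to the ERR element within 250 bp of the 10 optimal summits, in bp in the direction of transcription, ordered by pooled signal from 3946 at the top to 69.2. Filled circles are core or full matches, crosses are matches with 1 mismatch (a cross on a circle is the same site), and grey marks the 100 bp on either side used for the counts. The 3 cores lie at Pgk (2675) and Eno (516 and 428).

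One weaker Eno region also held the full element. A pooled summit at 1725544, in coding sequence, had a signal of 42.9 (rank 6771), below the optimal cutoff. The match lies in coding sequence and is shown for comparison with the stronger Eno sites.
Eno, chr2L:1725597-1725625, minus strand: tgcctgctccTGAAGGTCAaccagatcgg

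Other elements were counted at the same 10 summits, which are too few to set these counts apart from the shares over all optimal windows. None held TATCGATA, the element of DREF, which 5.53% of optimal windows held. None held GGTCACACT, a form of the M1BP element, against 2.84%. The E-box CACGTG was likewise absent, against 3.35%. The letters TATAAA were found at none of them and in 22.1% of optimal windows. The core of hypoxia response elements, ACGTG, was present at 2 of the 10 and in 17.6% of optimal windows, and it is part of the E-box. The windows also differed in base composition. G and C made up 53.7% of the window at the strongest Pgk summit and 52.7% at Pglym78, above the upper quartile of optimal windows, 46.3%. At the other Pgk summits G and C ran from 34.8% at 2754679 to 52.7% at 2753201, so a high share was not confined to the strongest regions. At the Eno summits G and C made up 40.8% to 42.8%, near the median of 40.3%. In Pglym87 with 2 kb on either side, TNAAGGTCA was absent and the core occurred at 2 places, 1343 bp upstream and 969 bp downstream of the start.

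Among the other glycolytic genes, 9 of 12 had an optimal region, against 22.5% of all protein-coding genes under the same rule. At the 9, the highest pooled signals ran from 241 to 2559, with a median of 852. Over all 3143 genes with an optimal region the median was 105. Pglym78 was first in both replicates and Pgk next, followed by Ald1, which encodes aldolase. Divided by each list's median, the highest signal of Pglym78 was 142 in replicate 2 and 116 in replicate 3, above Pgk at 92.2 and 83.1. Ald1 stood at 85.1 and 82.7, below Pgk in each replicate, but its range and that of Pgk overlapped. Next came the triosephosphate isomerase gene Tpi (pooled signal 1096), Gapdh2 for glyceraldehyde phosphate dehydrogenase (1052) and Pfk for phosphofructokinase (1046), whose ranges overlapped on that scale. Gapdh1 (852) stood below them. The hexokinase gene Hex-A (660.3) and the phosphoglucose isomerase gene Pgi (636) followed, again with overlapping ranges. The highest Gapdh1 region lay 1814 bp from that gene's nearest start.

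Eno, on the same scale, stood at 16.7 in replicate 2 and 17.4 in replicate 3, below Pgi at 21.3 and 20.7 and above Ldh, the lactate dehydrogenase gene, at 11.7 and 11.1. These neighbours did not overlap over the 2 replicates. PyK, the pyruvate kinase gene whose enzyme acts directly after enolase, was lower again at 8.68 and 9.12. From Pgk to PyK the pathway's successive enzymes thus had highest pooled signals of 2675, 3946, 516 and 241. The 3 genes without an optimal region were the hexokinase genes Hex-C, Hex-t1 and Hex-t2, with pooled signals of 24.8, 18.3 and 23.5, and unlike Pglym87 each had a pooled region. With 2 samples in 1 group these orders carry no test.

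**Figure D4:**
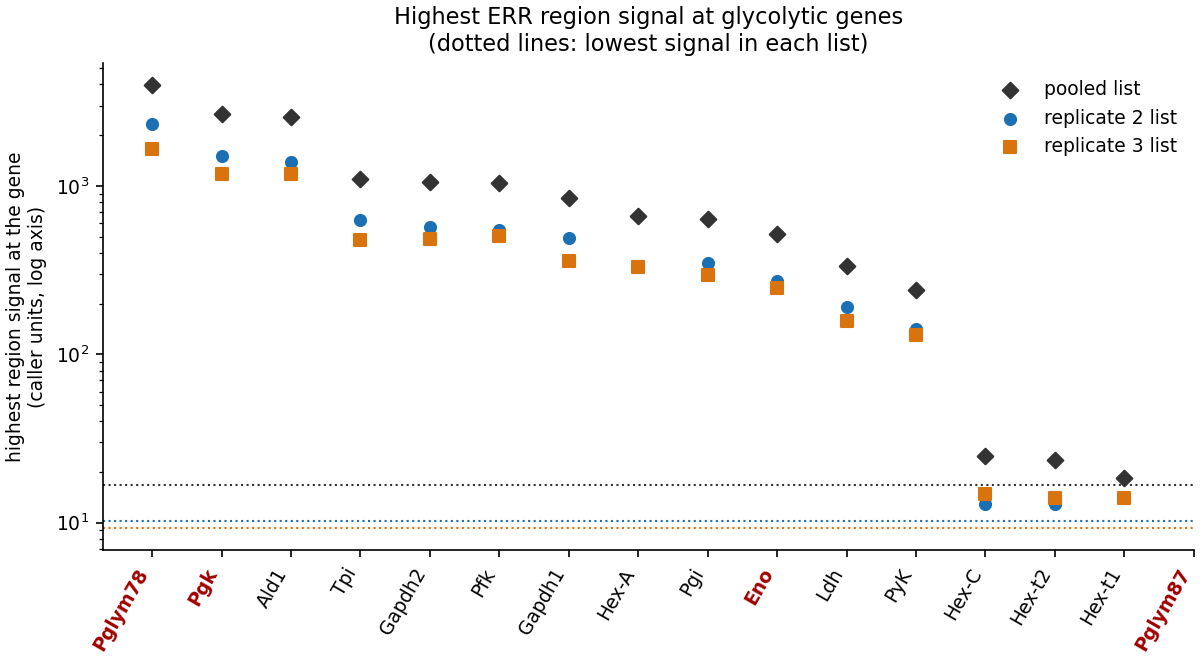
Highest region signal at each of 16 glycolytic genes in the pooled list and both replicates (caller units, log axis), ordered by pooled signal, with the 4 genes described here in bold red. Dotted lines mark the lowest signal of each list. Pglym78 (3946) and Pgk (2675) stand at the left, Eno (516) in the middle and Pglym87, with no point, at the right.

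The genes most like each of the 3 bound genes were found by the distance between log2 highest signals over the 2 replicates. For Pgk the nearest were Ald1 and CG6154, which share a region, at a distance of 0.12. The genes with the Pglym78 region followed, tied at 0.79: Pglym78 itself, CG11882 and CG14511. For Pglym78 the nearest were Pgk at 0.79 and then Ald1 and CG6154 at 0.89, so no gene outside its own region came close. For Eno, gish, Tlk and CG9485 lay within 0.08, 0.14 and 0.17, with pooled signals of 538, 556 and 477. In the pooled list 67 genes had a higher region than Eno, against 80 in replicate 2 and 57 in replicate 3.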

How the data were processed

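Region lists for the build dm6 were used as the authors deposited them. The deposited signal of a region is in units of the peak caller, and the deposited −log10 q-value comes from the same program. Per the notes deposited with the files, each relaxed list was made from the alignments of 1 replicate or of both pooled, each together with 1 further file, and the optimal set from those lists. Which aligner and caller made them is not given in the sources used here. Lists on dm3 were not used here. Depth is unknown, so no interval is given.

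Gene models were Ensembl release 115 (BDGP6.54), with sequence from NCBI genome release 6, read with Python 3.11.15, pandas 2.3.3 and Biopython 1.88. RefSeq gives the same starts for the 4 genes. Coordinates are 1-based. Ranks are by signal within a list. Summits of 2 lists were matched within 100 bp. Motifs were searched on both strands in 201 bp windows centred on summits. Coding sequences were aligned globally. No test across samples was possible, with 2 replicates of 1 group, and the exact permutation test planned for Pglym78 against Pglym87 had no value for Pglym87. On simulated data, the scripts recovered all planted motifs and summits.

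The genes, lists and motifs were chosen with earlier results of these data known. The genes named are the 4, 12 other glycolytic genes, protein-coding genes with a start within 2 kb of an optimal summit at the 4, and the 3 genes nearest to each in signal. CG9961 and CG7059 were to be added only if annotated as copies of these enzymes, which the annotation used here does not state. Cyp313a5 was named for its position after the values were seen. Alternatives varied the distance, the list, the gene models, the matching of summits, the scaling, and the motif and its window.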

Additional observations from a re-analysis of the deposited data

How the results depend on the processing

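Of 41 values under alternative settings, 31 stayed within the limits set for no change, 10 moved and none reversed. The limits differed between results: a fall from 9 to 6 matched regions lay within them, and one from 7.87 to 7.47 in log2 signal did not. Several of the 31 were also fixed in advance, so their number does not measure robustness. Counts and signals cannot reverse. The strongest summits at Pgk, Pglym78 and Eno lie within 500 bp of a start, so distances of 500 bp or 1 kb could not alter their signals. Nor could they alter the value of Pglym78 over the lowest signal. RefSeq gives the same starts, and the strongest regions rank 1, 2 and 47. RefSeq models and the higher-signal 50% therefore could not lower the count of 3 genes. Optimal regions were at 3 of the 4 genes under every alternative run (starts within 500 bp, 1 kb or 5 kb, starts only, overlap, the higher-signal 50% of the set, each replicate alone, RefSeq models). Leaving out each replicate, the highest signal ran from 1182 to 1501 at Pgk, 1645 to 2317 at Pglym78 and 248 to 271 at Eno, below the pooled 2675, 3946 and 516, but signals are not scaled between lists. The log2 signal of Pglym78 over the lowest listed was 7.47 to 7.82. Pglym87 gave no value under any setting. Matched regions numbered 8, 10 and 6 for summits within 50 bp, any overlap and 50% reciprocal overlap. The median replicate ratio of 1.27 became 1.11 after division by list medians and 1.00 for ranks. TNAAGGTCA was at 0 summits within 50 bp and 1 within 250 bp, the core at 3 and up to 1 mismatch at 4, and the counts differ by how strict the match is. No paired analysis was possible because both samples belong to 1 group.

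Depth and the caller's settings are unknown and the control was not used here, so an absent region, as at Pglym87, means only that none was listed. Embryos of 0 to 24 h were pooled, and binding at single ages or in single cell types cannot be read from these lists.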

Other observations

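The lesser pooled regions at Pglym78 had their summits in neighbouring genes. A pooled region with a signal of 40.4 had its summit in the coding sequence of eIF2D, downstream of Pglym78, and one with 24.4 had its summit in the coding sequence of CG14511, upstream. Their counterparts in replicate 2 had signals of 28.5 and 20.6. In replicate 3 the listed summits were at the 3′ UTR of Pglym78 (14.8) and in eIF2D (10.8), and none was listed in CG14511 within the 2 kb limit. These genes were named after their values were seen.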
